A study of Mus musculus with 4 samples.

Results

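The type I interferon-stimulated genes are genes that cells switch on when interferon alpha or beta reaches them. Here 38 such genes were chosen by name and located in the authors' gene table through their Ensembl identifiers. They were described in macrophages treated with exosomes, small vesicles that cells release. All 38 were found among the 53139 loci of the table, and all 38 were among the 12648 loci that the authors' Cuffdiff test covered. The macrophages carried the cell line label 9609 parent and the genotype label WT, and were taken from mouse tumours of the MCA fibrosarcoma. The 2 samples of the first group received MEK1-low exosomes, which the label also marks GFP, and the 2 samples of the second group received MEK1-hi exosomes. MEK1 content and the GFP mark change together, so their effects cannot be told apart, and no macrophages without exosomes were among the 4 samples. The labels state no age or sex of the mice, no exosome dose and no length of treatment, and do not tell whether replicates were grown as separate cultures. The question is whether exosomes rich or poor in MEK1, a kinase of the MAPK pathway, leave recipient macrophages with different transcripts.

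Levels are the authors' FPKM, fragments per kilobase of transcript scaled to library size, with 1 value per group and therefore no spread between samples. A gene was called, and is said to have risen or fallen, where the q-value in the authors' deposited table was under 0.05. The p-values rest on Cuffdiff's model and cover only the spread among these samples, which could be technical. FPKM carries no read counts, so the depth behind a value is unknown; the labels state a sequencing depth near 25000000 reads for each sample. Fewer cells with a transcript and less transcript per cell cannot be told apart in such bulk values.

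Interferon alpha and beta bind a common receptor, IFNAR1 with IFNAR2, whose kinases JAK1 and TYK2 phosphorylate transcription factors of the STAT family. These join IRF9 to form ISGF3, a complex that binds the interferon-stimulated response element in promoters of the target genes. The targets encode sensors of foreign RNA and DNA, proteins that block viral entry, translation or replication, and brakes on the pathway itself. Macrophages keep many of these genes active at a low level without infection, through small amounts of interferon.

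The response element repeats the letters GAAA. A search for its core, GAAA and a second GAAA with any 2 bases between them, was made on both strands in the RefSeq promoters (build GRCm38.p6, the same assembly as mm10), which run from 250 bases before to 50 bases after a start site. Of the 38 genes, 27 had a promoter entry and 15 of these (55.6%) held the motif, against 3.99% of all 27018 genes with an entry. The longer form in which CT follows the second GAAA, a subset of the first, was found in 8 of the 27 (29.6%), against 0.304% of all. The letters TTCNNNGAA, a form of the site of STAT dimers that reads the same on both strands, were found in 7 of the 27 (25.9%), against 9.55% of all, and can lie beside or across the first motif. The promoters below are those of the 2 genes that fell (Ifit1 and Ifi205), of the gene with the highest level (Bst2), of Isg15, and of Ifit3 and Ifit3b, neighbours of Ifit1 that are near copies of each other (the last 3 were chosen after their values were seen). They are written 5′ to 3′ along the strand of the gene, with matches to the core on either strand in capitals (on the opposite strand it reads as TTTC, 2 bases and TTTC).
Ifit1 (chr19:34640639-34640938, plus strand): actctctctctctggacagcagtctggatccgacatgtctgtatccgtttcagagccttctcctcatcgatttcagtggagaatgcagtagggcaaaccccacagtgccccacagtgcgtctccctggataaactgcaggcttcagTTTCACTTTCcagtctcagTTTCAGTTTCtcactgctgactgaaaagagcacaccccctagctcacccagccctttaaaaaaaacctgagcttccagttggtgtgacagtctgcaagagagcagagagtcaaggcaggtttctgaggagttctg
Ifit3 (chr19:34583279-34583578, plus strand): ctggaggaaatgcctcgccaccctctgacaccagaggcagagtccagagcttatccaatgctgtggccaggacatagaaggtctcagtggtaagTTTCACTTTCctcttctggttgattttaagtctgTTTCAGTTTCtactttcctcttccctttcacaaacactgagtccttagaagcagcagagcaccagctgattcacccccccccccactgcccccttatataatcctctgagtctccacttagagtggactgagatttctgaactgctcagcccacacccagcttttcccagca
Ifit3b (chr19:34607707-34608006, plus strand): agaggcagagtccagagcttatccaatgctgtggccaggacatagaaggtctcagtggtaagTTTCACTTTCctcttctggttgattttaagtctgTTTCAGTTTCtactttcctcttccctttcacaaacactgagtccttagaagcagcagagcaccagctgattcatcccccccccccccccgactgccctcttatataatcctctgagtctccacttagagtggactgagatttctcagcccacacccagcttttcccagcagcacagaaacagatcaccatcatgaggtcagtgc
Ifi205 (chr1:174031706-174032005, minus strand): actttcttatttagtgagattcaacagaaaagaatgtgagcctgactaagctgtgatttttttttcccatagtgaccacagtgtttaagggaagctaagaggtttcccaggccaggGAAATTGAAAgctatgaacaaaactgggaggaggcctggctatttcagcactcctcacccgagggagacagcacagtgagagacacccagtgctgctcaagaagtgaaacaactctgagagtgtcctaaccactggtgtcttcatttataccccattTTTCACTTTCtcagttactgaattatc
Bst2 (chr8:71537423-71537722, minus strand): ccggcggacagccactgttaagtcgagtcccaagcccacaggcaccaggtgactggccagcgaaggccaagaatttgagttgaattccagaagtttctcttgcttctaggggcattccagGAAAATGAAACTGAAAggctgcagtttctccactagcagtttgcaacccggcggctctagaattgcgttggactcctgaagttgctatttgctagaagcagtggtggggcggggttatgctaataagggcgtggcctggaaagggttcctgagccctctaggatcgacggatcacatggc
Isg15 (chr4:156200769-156201068, minus strand): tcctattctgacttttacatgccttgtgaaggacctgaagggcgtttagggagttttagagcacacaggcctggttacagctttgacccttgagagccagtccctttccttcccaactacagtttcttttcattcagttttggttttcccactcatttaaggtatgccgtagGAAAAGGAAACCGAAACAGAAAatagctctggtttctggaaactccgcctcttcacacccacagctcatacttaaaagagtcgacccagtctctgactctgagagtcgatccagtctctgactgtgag
In Ifit1 the matches began 104 and 85 bases before the start site, both on the opposite strand. In Ifi205 one match began 134 bases before the start and the other lay 24 to 33 bases into the transcribed part. Isg15 held 3 overlapping matches between 78 and 57 bases before the start. The promoters of Ifit3 and Ifit3b shared 171 of their 276 windows of 25 bases. A match is a description of letters and does not show a bound site.

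Across the list, values with MEK1-hi exosomes were close to those with MEK1-low exosomes. Ifit1 and Ifi205 fell and 0 of the 38 rose by Cuffdiff in the authors' deposited table. Over all tested loci the same rule called 2.44%, made up of 1.69% lower and 0.751% higher. Without adjustment, p in the authors' deposited table was under 0.05 for 6 of the 38, 5 lower and 1 higher, and for 8.66% of all tested loci, 5.12% lower and 3.53% higher. With q under 0.1 the same 2 genes were called, where 3.11% of tested loci were, 2.12% lower and 0.988% higher. With q under 0.01 Ifi205 alone was called, where 1.69% of tested loci were, 1.23% lower and 0.466% higher. Values were lower with MEK1-hi exosomes in 21 genes and higher in 17, and the share of lower values was 55.3% against 49.8% of all tested loci. On the log2(FPKM + 1) scale, which understates changes of low genes, the list had a median difference of -0.08, beside 0.00 over the 11804 tested loci at 1 FPKM or more. The quartiles of the 38 genes ran from -0.23 to 0.08 on that scale, and those of the 11804 loci from -0.14 to 0.13. Of the 38 genes, 27 (71.1%) differed by at most 1.2-fold between the groups, as did 71.3% of the tested loci at 1 FPKM or more. Among the 10041 tested loci within the list's range of mean levels that share was 76.5%, and their quartiles ran from -0.13 to 0.12.

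**Figure D1:**
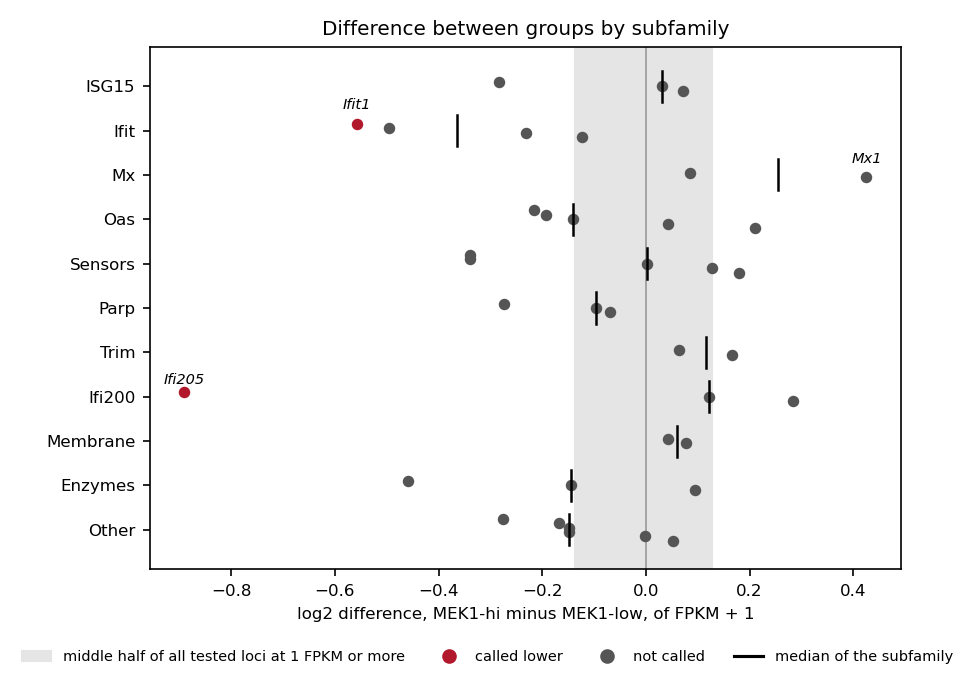
Log2 difference of FPKM + 1 between MEK1-hi and MEK1-low exosomes (x axis) for each of the 38 genes, 1 point a gene, in 11 subfamilies (y axis; Enzymes are Rsad2, Cmpk2 and Isg20). Bars mark subfamily medians and the grey band the interquartile range of all tested loci at 1 FPKM or more; the 2 called genes, Ifit1 and Ifi205, lie farthest to the left and all 4 Ifit genes lie below 0.

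Most of the list was well expressed. Mean levels of the 2 groups ran from 2.34 FPKM for Ifi205 to 602 FPKM for Bst2, with a median of 26.4 FPKM against 10.7 FPKM over all tested loci. Of the 38 genes, 29 stood above that median of all tested loci. Within this range of levels, no called locus had an absolute log2 fold change (without a pseudocount) under 0.48, and 34 of the 38 genes lay under it. The 4 at or past it were Ifi205, Ifit3b, Ifit1 and Isg20. The FPKM of the list summed to 2296 in the MEK1-low and 2245 in the MEK1-hi group, a change of -2.24%.

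**Figure D2:**
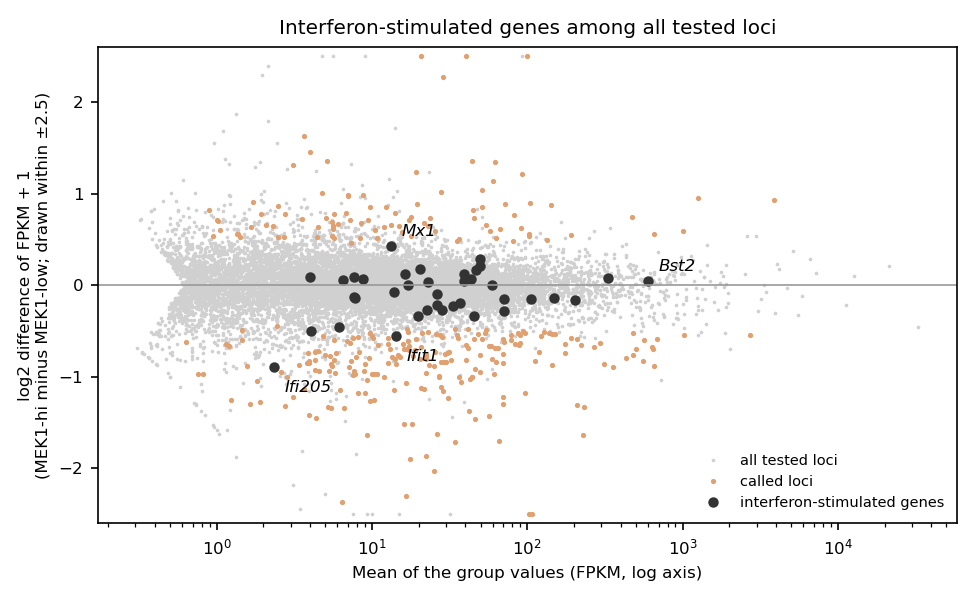
Log2 difference of FPKM + 1 (y axis, MEK1-hi minus MEK1-low, points past 2.5 in either direction drawn at the edge) against the mean of the group values in FPKM (x axis, log scale) for all 12648 tested loci in grey, called loci in orange and the 38 interferon-stimulated genes in black. The black points stay near 0, with Ifi205 at -0.89, Ifit1 at -0.56 and Mx1 at 0.43.

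The IFIT proteins bind foreign or incompletely capped RNA and block its translation, and their genes showed the most uniform direction of any subfamily with more than 3 members. Smaller subfamilies were as uniform, with 3 of 3 Parp values lower, and 2 of 2 higher for Mx, for Trim and for Bst2 with Ifitm3. All 4 Ifit values were lower with MEK1-hi exosomes, also after rescaling to a common upper quartile, and 1 of the 4 passed the test. Ifit1 (chromosome 19, 34640871 to 34650009, mm10), whose protein holds RNA that lacks a cap methyl group, fell from 17.1 to 11.3 FPKM, 1.51-fold lower (the authors' deposited table gives p = 0.00045, q = 0.0223). Ifit3b stood at 4.92 and 3.20 FPKM with MEK1-low and MEK1-hi exosomes, 1.54-fold lower, and was not called (the authors' deposited table gives p = 0.00875, q = 0.202). The larger fold thus belonged to the gene that did not pass, which also had the lower level.

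Ifit3 stood at 35.9 and 30.4 FPKM (the authors' deposited table gives q = 0.860). Ifit2, whose product also promotes cell death, stood at 8.05 and 7.31 FPKM (the authors' deposited table gives q = 0.999). Of the windows of 100 bases (the read length) in transcripts of Ifit3b, 27.4% were also found in other genes, chiefly Ifit3, and of those of Ifit3, 31.7% were, so the split of reads between them is uncertain. For Ifit1 that share was 3.29% and for Ifit2 it was 0%. The median of the subfamily was -0.36 on the log2(FPKM + 1) scale, and -0.23 without Ifit1.

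The Ifi200 genes encode proteins with HIN domains, several of which bind DNA in the cytosol or nucleus, and they lie in a row on chromosome 1. Ifi205 (chromosome 1, 174011998 to 174031810), the last gene of the row and a relative of the DNA sensor Ifi204, fell from 3.35 to 1.34 FPKM, 2.49-fold lower (the authors' deposited table gives p = 0.0001, q = 0.00636). It had the lowest level of the 38 genes and the largest change. Ifi204, a cofactor of DNA sensing through STING, stood at 44.8 and 54.7 FPKM (the authors' deposited table gives p = 0.0561, q = 0.606). Ifi203 stood at 15.5 and 16.9 FPKM (the authors' deposited table gives q = 0.999). Ifi205 thus fell while the values of both other members were higher and did not pass. Other genes shared 15.0% of the 100-base windows of Ifi205, 10.7% of those of Ifi204 and 2.84% of those of Ifi203, and the annotated span of Mndal reaches into Ifi203.

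**Figure D3:**
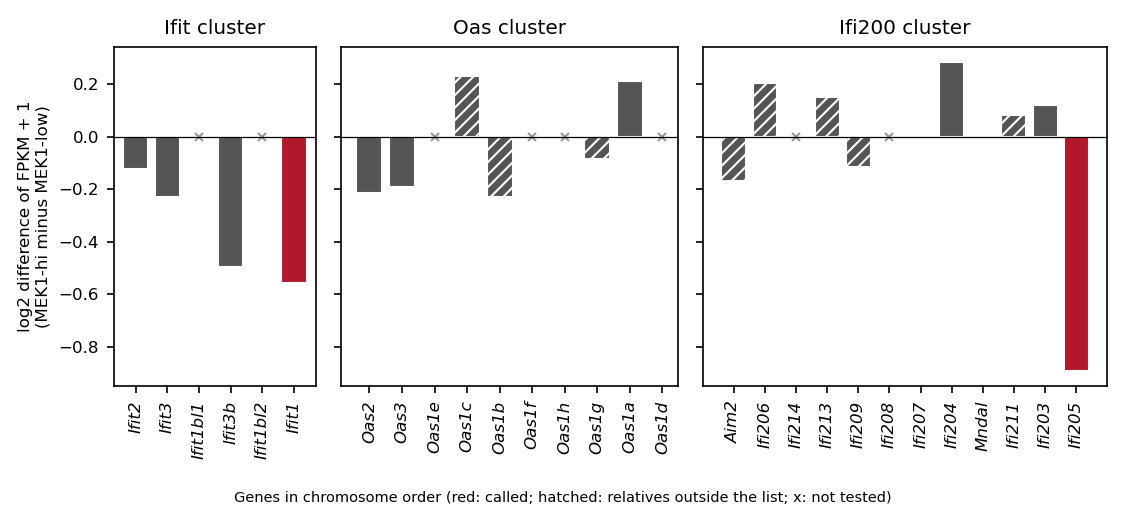
Log2 difference of FPKM + 1 between MEK1-hi and MEK1-low exosomes (y axis) for the genes of 3 chromosome clusters in their order on the chromosome (x axis), with called genes in red, relatives outside the list hatched and untested genes as crosses. Each red bar stands at the end of its row, Ifit1 at -0.56 and Ifi205 at -0.89, while the neighbours in the Oas and Ifi200 rows take both directions.

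The same row holds further Ifi200 genes, and none of the 7 relatives tested was called by Cuffdiff in the authors' deposited table, with 0 at an unadjusted p below 0.05 there. Ifi207 stood at 66.6 and 66.3 FPKM, and Mndal, in a locus joined with Gm38050, at 24.8 and 24.7 FPKM. Aim2, the DNA sensor that starts an inflammasome, stood at 25.5 and 22.5 FPKM. Differences of the 7 relatives ran from -0.17 to 0.21 on the log2(FPKM + 1) scale. In the Ifit cluster, which spans 99.3 kb, the relatives Ifit1bl1 and Ifit1bl2 stayed under 0.2 FPKM in each group and are marked as not tested by the authors.

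The MX proteins are dynamin-like GTPases that trap viral nucleocapsids, and both Mx genes had higher values without passing the test. Mx1 stood at 11.2 and 15.3 FPKM with MEK1-low and MEK1-hi exosomes, the largest higher value of the list at 1.37-fold (the authors' deposited table gives p = 0.0470, q = 0.554). Mx2 stood at 3.86 and 4.16 FPKM (the authors' deposited table gives q = 0.999). Transcripts of the pair shared about 1% of their 100-base windows, 0.929% for Mx1 and 1.13% for Mx2. Mx1 was thus the 1 gene of the list that was higher at an unadjusted p under 0.05.

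The OAS enzymes make 2′-5′ oligoadenylate, an antiviral signal, when they meet double-stranded RNA. None of the 5 Oas genes was called by Cuffdiff in the authors' deposited table and 0 had an unadjusted p below 0.05 there. Oasl2, of the OAS-like branch, had the highest level of the family, at 157 and 142 FPKM, and Oasl1, a translational inhibitor of Irf7, stood at 38.6 and 39.8 FPKM. Oas1a stood at 46.1 and 53.5 FPKM, Oas3 at 39.5 and 34.4 FPKM and Oas2 at 28.4 and 24.3 FPKM. Values were lower in 3 of the 5 and higher in 2, all within 1.2-fold. Oas1a shared 40.9% of its 100-base windows with other genes, chiefly its neighbour Oas1g, which stood at 33.0 and 31.1 FPKM.

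The sensors of foreign nucleic acid took both directions, and none of the 5 was called by Cuffdiff. Ddx58, which encodes the RNA sensor RIG-I, stood at 22.3 and 17.4 FPKM, 1.28-fold lower (the authors' deposited table gives p = 0.0261, q = 0.405), the 1 sensor past an unadjusted p of 0.05. Ifih1, which encodes MDA5, the sensor of long double-stranded RNA, stood at 17.0 and 17.1 FPKM (the authors' deposited table gives p = 0.992). Dhx58, which encodes LGP2, a regulator of both, stood at 37.2 and 40.7 FPKM. Zbp1, a sensor of Z-form nucleic acid that can start necroptosis, stood at 50.8 and 39.9 FPKM (the authors' deposited table gives p = 0.0784, q = 0.714). Eif2ak2, which encodes the kinase PKR that halts translation, stood at 18.9 and 21.6 FPKM. The RIG-I and ZBP1 genes had lower values, and the other 3 sensors differed from equality by at most 1.14-fold, all upward.

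**Figure D4:**
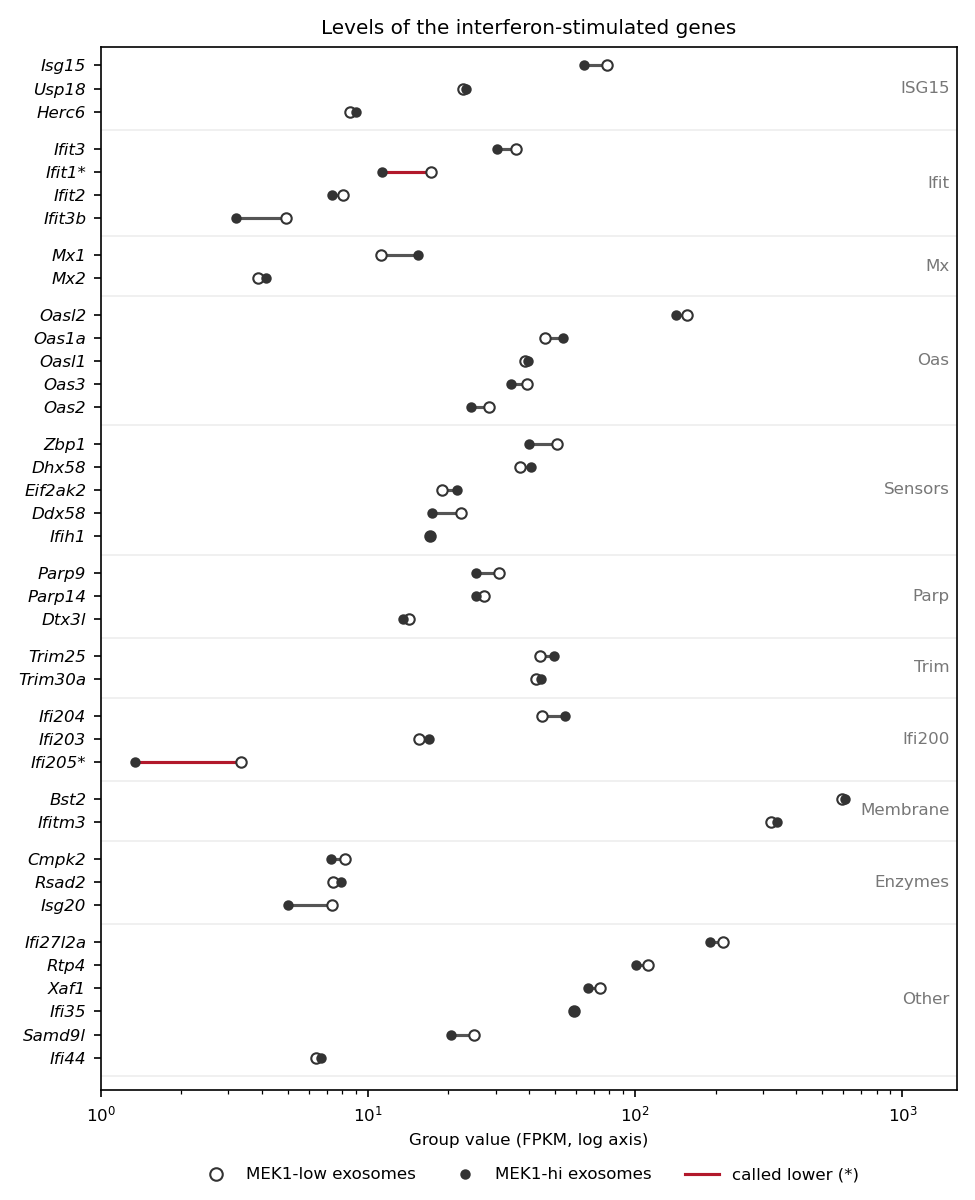
Group values of the 38 genes in FPKM (x axis, log scale) with MEK1-low (open circles) and MEK1-hi exosomes (filled circles), by subfamily and ordered by level within it (y axis). The circles of most genes nearly touch; the red lines mark Ifit1 and Ifi205, and Bst2 and Ifitm3 have the highest levels.

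Isg15 encodes a ubiquitin-like protein that is attached to other proteins and also secreted, and its group values were 78.3 and 64.2 FPKM, 1.22-fold lower with MEK1-hi exosomes (the authors' deposited table gives p = 0.0819, q = 0.725). Usp18, which removes ISG15 and restrains the interferon receptor, stood at 22.7 and 23.2 FPKM. Herc6, the mouse ligase for ISG15, stood at 8.55 and 9.03 FPKM in a locus joined with 4930533I22Rik and Gm45193. The genes for this ubiquitin-like protein and for the enzymes that attach and remove it were thus not called by Cuffdiff (the authors' deposited table gives q from 0.725 to 0.999). The activating and conjugating enzymes outside the list stood at 55.5 and 51.6 FPKM for Uba7, in a locus joined with 4 other genes, then at 43.3 and 46.9 FPKM for Ube2l6.

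Parp9 and Dtx3l encode partners in an ADP-ribosylation and ubiquitin ligase complex, and Parp14 a further ADP-ribosyltransferase that shapes macrophage activation. All 3 had lower values with MEK1-hi exosomes, also after rescaling to a common upper quartile, and 0 were called by Cuffdiff in the authors' deposited table, with 0 at an unadjusted p below 0.05 there. Parp9 stood at 30.9 and 25.4 FPKM, Parp14, in a locus joined with Gm49730, at 27.3 and 25.4 FPKM and Dtx3l at 14.3 and 13.6 FPKM. Parp9 and Dtx3l lie head to head on chromosome 16 and their annotated spans overlap by 682 bases on opposite strands. The libraries were stranded per the labels' protocols, but the labels do not state whether the authors' counting used strand. How reads of that overlap were assigned is therefore not known. Of the related Parp genes, none of 4 was called by Cuffdiff in the authors' deposited table, with 0 at an unadjusted p below 0.05 there. Among them Parp12 stood at 44.1 and 40.8 FPKM and Parp10, joined with Plec, at 68.3 and 61.7 FPKM.

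The membrane restriction genes had the highest levels of the list and hardly differed. Bst2, which encodes tetherin, the protein that holds budding virions at the cell surface, stood at 593 and 610.5 FPKM, rank 129 of the 12648 tested loci. Ifitm3, which blocks fusion of virus with endosomes, stood at 322 and 339.7 FPKM (both at q = 0.999, from the authors' deposited table). The neighbour Ifitm2, in a locus joined with Ifitm5 and Gm45717, stood at 283 and 221 FPKM (the authors' deposited table gives p = 0.0152, q = 0.290). Ch25h, the enzyme that makes the antiviral 25-hydroxycholesterol, stood at 1.42 and 1.59 FPKM.

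Rsad2 and Cmpk2, divergent neighbours on chromosome 12, encode viperin, a radical SAM enzyme that makes a chain-terminating nucleotide, and a mitochondrial nucleotide kinase. Rsad2 stood at 7.38 and 7.94 FPKM, and Cmpk2 at 8.17 and 7.29 FPKM (both at q = 0.999, from the authors' deposited table). Isg20, an exonuclease that degrades RNA, stood at 7.30 and 5.04 FPKM, 1.45-fold lower without being called (the authors' deposited table gives p = 0.0347, q = 0.473). Of the TRIM ubiquitin ligases, Trim25, which acts on RIG-I, stood at 44.0 and 49.5 FPKM and Trim30a at 42.4 and 44.3 FPKM. The relative Trim14 stood at 31.0 and 31.3 FPKM, and Trim30d at 13.7 FPKM in both groups. None of the 8 Trim relatives tested was called by Cuffdiff in the authors' deposited table, with 0 at an unadjusted p below 0.05 there.

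Among the 6 remaining effectors, 5 values were lower and 1 was higher, and 0 passed the test by Cuffdiff in the authors' deposited table, with 0 at an unadjusted p below 0.05 there. Ifi27l2a, which encodes a small mitochondrial or nuclear membrane protein, stood at 214 and 190.2 FPKM and Rtp4, a chaperone of membrane receptors, joined with Gm45338, at 112 and 101 FPKM. Xaf1, which antagonises the apoptosis inhibitor XIAP, stood at 74.1 and 66.7 FPKM. Samd9l, which restrains growth and translation, stood at 25.0 and 20.5 FPKM (the authors' deposited table gives p = 0.0566, q = 0.610). Ifi35 stood at 59.1 and 59.0 FPKM and Ifi44 at 6.38 and 6.65 FPKM. The 5 lower values ranged from 1.00-fold for Ifi35 to 1.22-fold for Samd9l, and that of Ifi35 was not lower after rescaling to a common upper quartile.

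The genes that carry the interferon signal were measured beside their targets. Of the 7 genes of the receptor and ISGF3, 0 were called by Cuffdiff in the authors' deposited table and 0 had an unadjusted p below 0.05 there, and all 7 lay within 1.2-fold. The receptor gene Ifnar2, joined with Il10rb and Gm21970, stood at 317 and 307 FPKM and Ifnar1 at 93.8 and 85.2 FPKM. Stat2 stood at 40.3 and 39.6 FPKM and Irf9, joined with Rnf31, at 49.6 and 49.8 FPKM. Of 18 type I interferon ligand genes, 17 were listed at 0 in both groups, and Ifnb1, which encodes interferon beta, stood at 0.0517 FPKM in the MEK1-low group and was listed at 0 in the MEK1-hi group. None of the 18 was tested.

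Of 15 genes for the induction of interferon, 0 were called by Cuffdiff in the authors' deposited table and 2 had lower values at an unadjusted p below 0.05 there. Irf7, the factor that amplifies interferon production, stood at 243 and 209 FPKM and Unc93b1, the chaperone of endosomal Toll-like receptors, at 404 and 389.6 FPKM. The 2 lower at that level were the kinase gene Ikbke, at 58.8 and 42.7 FPKM (the authors' deposited table gives q = 0.408), and the adaptor gene Traf3, at 10.3 and 6.91 FPKM (the authors' deposited table gives q = 0.289), both named after their values were seen. Of 9 inhibitors of the pathway outside the list, all 9 values were lower (8 of 9 after rescaling to a common upper quartile). Lower values made up 49.8% of all tested loci. Of the 9, 1 fell and 0 rose in the authors' deposited table, where 1.69% of all tested loci were called lower. Inhibitors within the list took both directions, with Isg15 at 78.3 and 64.2 FPKM and Usp18 at 22.7 and 23.2 FPKM. Socs3, a feedback inhibitor of JAK kinases that acts mainly on receptors of the interleukin 6 type, fell from 14.9 to 5.66 FPKM, 2.63-fold lower (the authors' deposited table gives p = 5e-05, q = 0.00349). Ptpn6, which encodes the phosphatase SHP-1, stood at 313 and 252 FPKM (the authors' deposited table gives q = 0.468). Samhd1, an enzyme of the nucleotide pool, stood at 204 and 164 FPKM (the authors' deposited table gives q = 0.921). Over the pathway genes outside the list that were tested, 31 of 49, the median was -0.05 on the log2(FPKM + 1) scale.

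The promoter motif did not divide the list by direction. The 15 genes whose promoter held the core had a median of 0.00 on the log2(FPKM + 1) scale, with 7 of 15 values lower and a range from -0.89 (Ifi205) to 0.21 (Oas1a). The 12 whose promoter did not had a median of -0.10, with 8 of 12 lower and a range from -0.46 (Isg20) to 0.17 (Trim25). Both genes that fell held the motif, as did Bst2 and Ifitm3 at the top of the levels. These medians are descriptions, with no test. Usp18, Mx1, Mx2, Oas2, Dhx58, Zbp1, Parp9, Parp14, Ifi204, Rtp4 and Ifi27l2a had no entry.

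Markers of the labelled cell type were abundant in both groups, with Lyz2, the lysozyme of myeloid cells, at 12303 and 13148 FPKM and C1qb, a complement chain of tissue macrophages, at 1755 and 2048 FPKM. The 11 macrophage markers summed to 20868 and 22108 FPKM, most of it Lyz2, and 1 of them, Cd14, was called lower. Of the 11 values, 8 were higher with MEK1-hi exosomes and 3 were lower. The 3 lower were Csf1r (855 and 672 FPKM), Adgre1 (387 and 318 FPKM) and Cd14 (213 and 136 FPKM). Plasmacytoid dendritic cells, which produce much interferon, were marked by Siglech, at 0 and 0.0351 FPKM, and by Klk1, listed at 0 in both groups, and the 6 markers of that list outside the 38 genes summed to 17.9 and 22.6 FPKM. Most of that sum was Tcf4, at 14.9 and 19.7 FPKM (1.32-fold higher and not called), with Cox6a2 at 2.45 and 2.43 FPKM. Neutrophil markers summed to 73.5 and 53.6 FPKM over 8 genes, almost all from Csf3r (37.8 and 30.8 FPKM) and S100a8 (35.5 and 22.6 FPKM), while S100a9, Ly6g, Retnlg and Mpo were listed at 0. Conventional dendritic cell markers summed to 192 and 136 FPKM over 7 genes, most of it Itgax, at 187 and 131 FPKM, which macrophages also express. The neutrophil and conventional dendritic cell sums were lower with MEK1-hi exosomes. The lists for T, NK and B cells, fibroblasts or fibrosarcoma cells and endothelial cells each summed to under 10 FPKM and were lower as well. Only the macrophage and plasmacytoid dendritic cell sums were higher. The part of any of these cell types in the lower values of Ifit1 and Ifi205 was not tested.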

How the data were processed

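Transcripts were measured by paired-end sequencing of stranded mRNA libraries in 4 samples, per the labels' protocols. Tools listed in the submitters' processing notes are TopHat, Cufflinks, Cuffdiff and FastQC 0.73, with the build mm10; their settings are not given in the sources used here. The deposited table holds 1 FPKM value per group, made by the authors with Cuffdiff per the file headers. It also holds the authors' p-value, q-value and test statistic, the latter a score. The labels do not say how the samples of a group were combined. The column named GFP exo was matched to MEK1-low through the treatment label. Adjusting the deposited p-values over the 12648 tested loci by Benjamini-Hochberg gave the deposited q-values to within 5.19e-07.

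Of 55029 gene identifiers, 54771 were matched to a symbol, and positions come from GENCODE M21 (mm10). Fold changes, list medians and counts were computed with Python 3.11.15 and pandas 2.3.3. A pseudocount of 1 FPKM was used where a scale of FPKM + 1 is named. The scripts were tested on simulated data. Promoters are RefSeq's (GRCm38.p6). Shared windows of 100 bases were counted exactly, on the same strand, in GENCODE M21 transcripts of the 38 genes and of the tested Schlafen genes.

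The genes, lists, motifs and alternatives were chosen with earlier results of these data known. All 38 genes are named. Of other lists, called genes and the 2 highest per list are named, with some pathway genes added for their role. Aim2, Ikbke, Traf3, Csf1r, Adgre1 and the uncalled Schlafen genes were chosen after their values were seen. Irf8, Mnda, Ifi27l1 and Samd9 were not analysed here, and some genes of the other lists are not reported here.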

Additional observations from a re-analysis of the deposited data

How the results depend on the processing

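The count of 2 lower and 0 higher genes among the 38 was also found at a q-value under 0.1, with an absolute test statistic of at least 2, after adjustment over loci at 1 FPKM or more, and without joined loci. It was 1 lower (Ifi205) at a q-value under 0.01, and 1 lower (Ifit1) without Ifit3, Ifit3b, Ifi203, Ifi204, Ifi205, Oas1a, Mx1, Mx2, Trim30a and Ifi27l2a. These were set aside by name as genes with family members of like sequence, and the 100-base windows they share with other genes run from 0% for Ifi27l2a to 40.9% for Oas1a, with 15.0% for Ifi205 and 3.29% for Ifit1, which was kept. The median of the list ran from -0.11 to -0.04 over 9 alternatives of pseudocount, level, scaling and membership. Rescaling to a common upper quartile shifted MEK1-hi values by 0.04 (log2) and left 20 of 38 values lower. Of 92 subfamily medians under alternatives, 88 moved by at most 0.1, 4 moved more, and 1 changed sign (the Isg15, Usp18 and Herc6 group without the joined Herc6 locus, at -0.13). Counts of the pathway genes and relatives were the same at a q-value under 0.1. No paired analysis was possible because the deposited table holds 1 value per group, and for that reason leaving out a replicate was not run. The unknown depth limits what can be said of Ifi205, whose 1.34 FPKM is the lowest value of the list.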

Other observations

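The Schlafen genes, interferon-inducible regulators of cell growth and of transfer RNA that lie together on chromosome 11, were among the relatives of the list. Of the 7 tested, Slfn2 fell and Slfn9 rose, 3 values were lower and 4 were higher. Slfn2, which keeps immune cells quiescent, fell from 179 to 123 FPKM, 1.45-fold lower, and Slfn9 rose from 1.87 to 3.13 FPKM, 1.67-fold (both at q = 0.0200, from the authors' deposited table). Slfn5 stood at 63.1 and 55.1 FPKM, Slfn8, which lies next to Slfn9, at 27.5 and 22.6 FPKM, and Slfn1 at 4.89 and 5.16 FPKM, none of them called. Of the 100-base windows of their transcripts, other genes shared 0.128% for Slfn2 and 3.71% for Slfn9, the latter chiefly Slfn10-ps.

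The 2 called Schlafen genes were the 2 calls among the 61 loci of relatives tested, 3.28%, where 2.44% of all tested loci were called. The relatives of highest level were Ly6e, a surface protein that limits coronavirus entry, at 1847 and 1530.1 FPKM (the authors' deposited table gives q = 0.831), and Ifi30, a lysosomal thiol reductase of antigen processing, at 679 and 535 FPKM (the authors' deposited table gives p = 0.0283, q = 0.423). The median of the relatives was -0.04 on the log2(FPKM + 1) scale.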
